A study of Mus musculus with 4 samples.

Results

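The genes described here are 38 components and targets of the unfolded protein response and of the integrated stress response, taken from the gene column of the authors' deposited table by symbol. All 38 were found among its 26815 entries, and the authors had tested 35 of them, out of 15315 tested entries in all. None of the 38 lay in an entry that merges several symbols. The series holds 4 RNA-seq libraries of mouse neural stem cells in 2 groups of 2, made as biological duplicates at different passages. Both groups were bought mouse cortical stem cells of strain CD-1 from E14.5 embryos, kept as an adherent monolayer on poly-L-ornithine and laminin with EGF and bFGF. The scrambled shRNA group carried the lentiviral control SHC002, and the Foxp1 shRNA group carried the lentiviral shRNA pLKO.1_sh_ex15 against Foxp1. Both groups were selected with puromycin at 0.5 µg/mL. Each group rests on 1 shRNA, so an effect of Foxp1 cannot be told apart from another effect of that hairpin.

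Proteins that enter the secretory pathway fold in the lumen of the endoplasmic reticulum (ER) with the help of chaperones, disulfide isomerases and lectin chaperones. When unfolded proteins build up, the membrane sensors IRE1 (Ern1), PERK (Eif2ak3) and ATF6 raise the transcription of chaperone and degradation genes, through spliced XBP1, cleaved ATF6 and ATF4. PERK shares its target, the initiation factor eIF2, with kinases that sense amino acid shortage, heme lack or double-stranded RNA; their common output, ATF4, drives amino acid synthesis, transport and redox genes, and this wider program is the integrated stress response. In the developing cortex the pathway is known for acting on the balance between direct neuron formation and intermediate progenitors.

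The transcription factors of the response read short promoter elements, and these are shown because they are the sequences through which the response is known to reach its targets. Promoters of 250 bases before to 50 bases after the transcription start were found for 35 of the 38 genes in RefSeq sequence of GRCm38.p6, 36 promoters in all, with no entry for Atf6, Hyou1 and Manf. The ER stress element, which ATF6 and the factor NF-Y bind, was searched on both strands as CCAAT and CCACG separated by 9 bases. It was present in 8 of 36 promoters (22.2%), those of Calr, Canx, Creld2, Dnajc3, Hsp90b1, Hspa5, Pdia6 and Syvn1, against 0.119% of the 32851 promoters of the RefSeq table. Hsp90b1 held 2 copies. The following stretches show the element in capitals in Hspa5, the best known target, and in the element-bearing genes with the highest and the lowest fold change, each 5′ to 3′ on the strand of the gene. In Creld2 the element reads on the opposite strand.
Hspa5, chr2:34772005-34772063, + strand: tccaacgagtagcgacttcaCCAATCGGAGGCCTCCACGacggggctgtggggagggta
Creld2, chr15:88819500-88819558, + strand: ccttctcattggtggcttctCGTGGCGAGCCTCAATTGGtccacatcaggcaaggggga
Dnajc3, chr14:118937807-118937865, + strand: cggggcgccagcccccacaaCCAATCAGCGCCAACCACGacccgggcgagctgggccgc

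The C/EBP-ATF element, which ATF4 binds with a C/EBP partner, was searched as TGATG and AA separated by 1 base, and is shown as the counterpart of the ER stress element on the ATF4 arm. It was found in the promoters of Asns, Atf3, Chac1, Herpud1, Nupr1 and Trib3, 16.7% of the 36 against 3.97% of all promoters. The element is in capitals below for Asns and Chac1, which were the carriers with the lowest fold changes among those tested; in Chac1 it reads on the opposite strand.
Asns, chr6:7693210-7693252, - strand: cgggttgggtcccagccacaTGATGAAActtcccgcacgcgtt
Chac1, chr2:119351029-119351076, + strand: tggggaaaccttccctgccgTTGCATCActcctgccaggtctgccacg

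Pdia4 is shown as the gene of the list that passed the authors' test. The 250 bases before its start hold 3 copies of CCAAT, in capitals, beginning 213, 94 and 75 bases upstream, the second of them on the opposite strand, and no complete ER stress element.
Pdia4, chr6:47813513-47813762, - strand: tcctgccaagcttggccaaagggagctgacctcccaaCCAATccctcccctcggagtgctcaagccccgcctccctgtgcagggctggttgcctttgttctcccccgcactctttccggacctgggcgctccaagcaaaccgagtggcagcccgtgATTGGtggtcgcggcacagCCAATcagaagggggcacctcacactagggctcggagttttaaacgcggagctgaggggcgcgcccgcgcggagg

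The UPR element TGACGTGG was in none of the 36 promoters and in 0.676% of all. CCAAT by itself was in 72.2% of the 36 and 37.4% of all promoters, and CCACG by itself in 80.6% and 32.8%; both parts occur inside the ER stress element and are counted there too. These matches describe letters in a window and not binding.

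**Figure D1:**
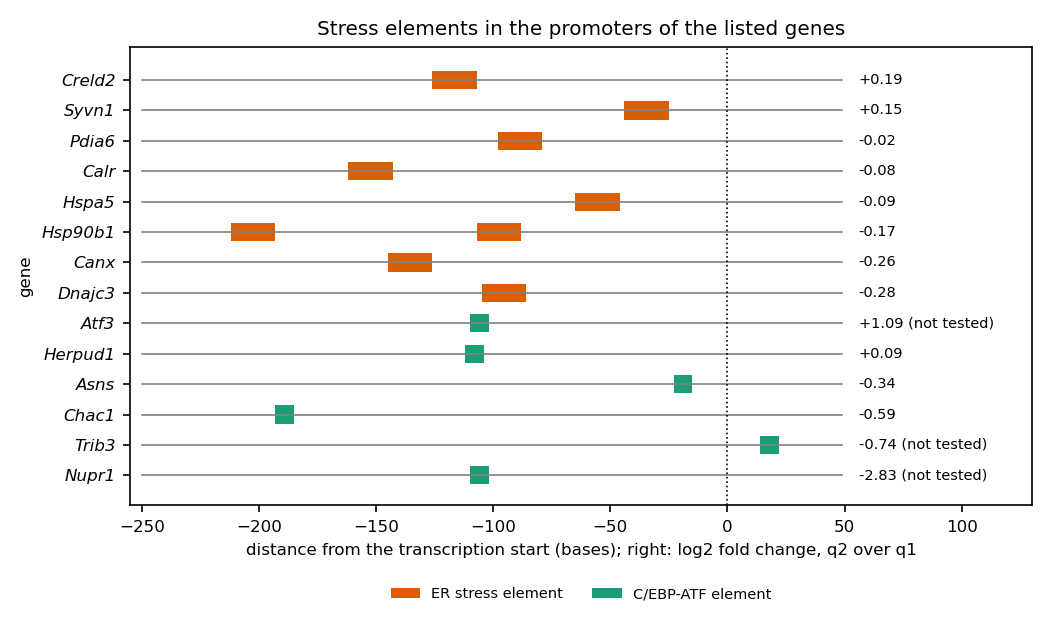
Position of the ER stress element (orange) and the C/EBP-ATF element (green) in the promoters of the genes that hold one, as distance from the RefSeq transcription start in bases (x axis), with the deposited log2 fold change of q2 over q1 at the right. The 8 genes with an ER stress element have log2 fold changes between -0.28 and 0.19; Atf3, Trib3 and Nupr1 were not tested.

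The comparison asked which transcripts differ between cells with the Foxp1 shRNA and cells with the scrambled shRNA. The deposited table codes its 2 conditions q1 and q2, and no label or header ties a code to an shRNA, so each direction below is that of q2 relative to q1. Foxp1, the targeted forkhead transcription factor, was 4.09-fold lower in q2 by the authors' deposited table (-2.03 as log2 fold change, q = 0.00162 by Cuffdiff). That q goes with the lowest Cuffdiff p given, 5e-05, and does not rank the 472 tested entries that share it. Creb3l1 and Slc6a9, described below, are among them. No value per library was used here, so neither levels nor a spread between replicates can be given, and read depth is unknown. In its place, the error of each log2 fold change was taken as the deposited fold change divided by the deposited statistic, and an interval of 95% was set around it with a normal distribution. The authors' own p-values are smaller than a normal distribution of that statistic gives, so these intervals are wider than the p-values imply.

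The stress response genes as a group showed little difference between the conditions. A single one of the 35 tested genes, Pdia4, passed Cuffdiff's q under 0.05 in the authors' deposited table. That is 2.86% of them against 7.63% of all tested entries. Among the 12090 tested entries with a single symbol, as the 35 genes have, 8.96% were called and 2608 had an unadjusted p under 0.05. Pdia4 was higher in q2, where 4.24% of tested entries were called higher, and no gene of the list was called lower, against 3.39% of tested entries. At an unadjusted p under 0.05, 4 of the 35 genes passed in the authors' deposited table (11.4%), namely Pdia4, Dnajb9, Sdf2l1 and Hyou1, against 19.2% of tested entries. The 4 did not point one way: Dnajb9 had a negative log2 fold change and the others positive ones.

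Fold changes of the group were balanced around 0 and small. A positive log2 fold change was given to 17 genes and a negative one to 18 in the authors' deposited table, with a median of -0.02 beside -0.05 over all 15197 tested entries with a finite value. The median absolute log2 fold change was 0.17, against 0.28 over the 12090 tested entries with a single symbol in the authors' deposited table. It was under 0.2 in 20 of the 35 genes (57.1%) and in 37.3% of those entries. It was above 0.5 in 4 genes (11.4%), against 25.96% of entries, and above 1 in none, against 7.78%. The median implied error was 0.32 for the genes and 0.35 for the single-symbol entries, so the smaller differences went with a somewhat smaller error; its part in them was not tested.

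How far these data bound a change is set by the intervals. Of the 35 intervals 33 included 0, and those of Pdia4 and Dnajb9 did not. For 28 genes the whole interval lay within a 2-fold difference in either direction, or for 29 when the error was taken from the deposited p-value instead. The other 7, Pdia4, Dnajb9, Sdf2l1, Hyou1, Ddit3, Cebpb and Chac1, had intervals that reach past 2-fold. A q above the threshold therefore does not show equal expression: for the 28 genes a change of less than 2-fold in either direction remains within the interval.

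**Figure D2:**
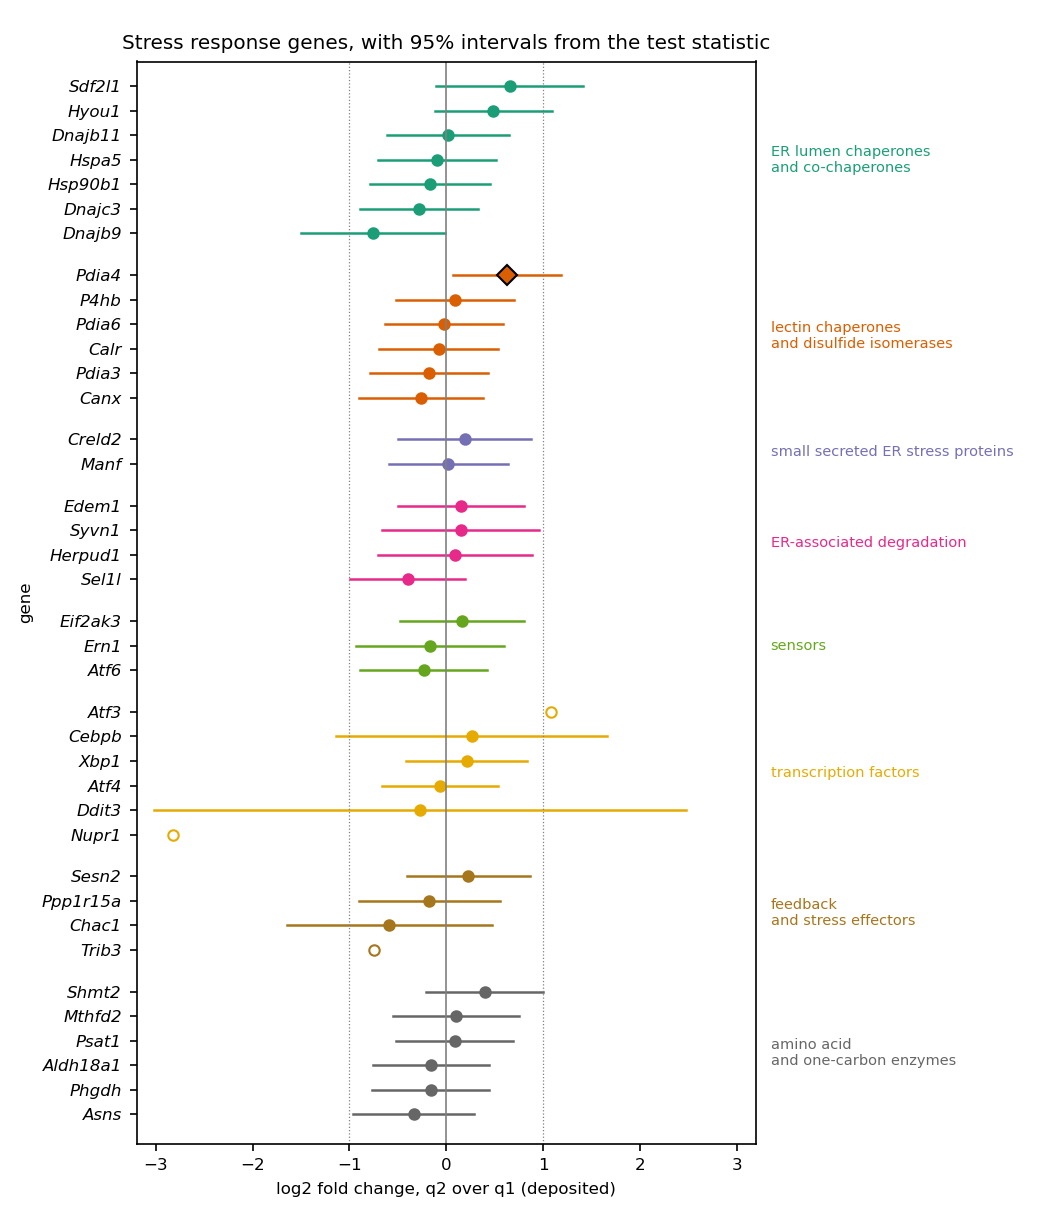
On the x axis, the deposited log2 fold change (q2 over q1) of the 38 genes, grouped and coloured by role, with lines for the 95% interval computed from the deposited statistic; the diamond marks Pdia4, the called gene, and open circles the 3 genes without a test. Dotted lines mark a 2-fold difference; 28 of 35 intervals lie between them.

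**Figure D3:**
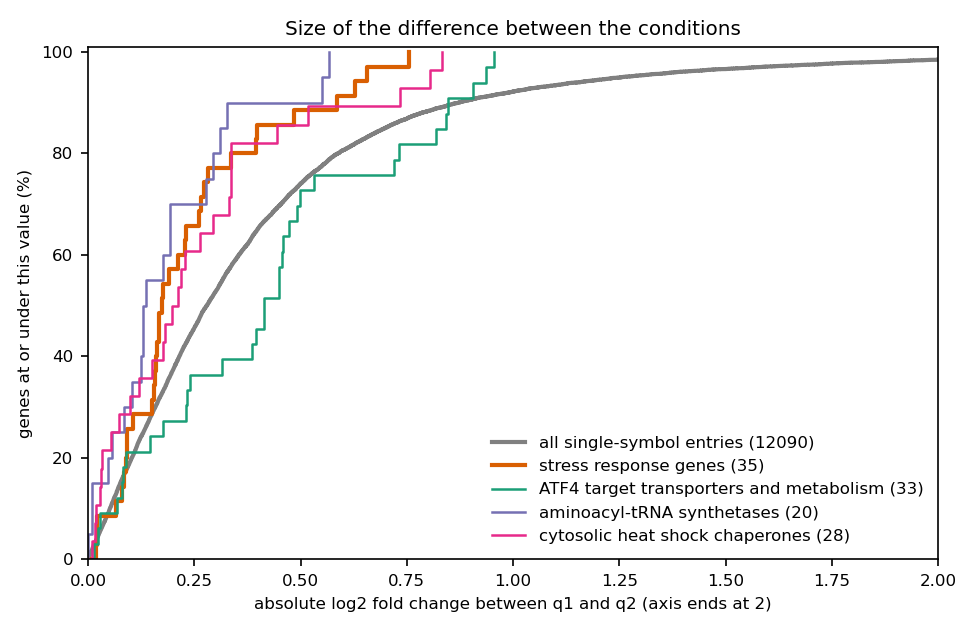
Share of genes (y axis, percent) whose absolute deposited log2 fold change is at or under the value on the x axis, which ends at 2, for all single-symbol tested entries (grey), the stress response genes (orange) and 3 related lists. At 0.2 the orange line stands at 57.1% and the grey line at 37.3%.

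Among the 7 chaperones and co-chaperones of the ER lumen none was called. Hspa5 (chromosome 2, 34772090 to 34776529 in mm10, the GRCm38 build of the files), which encodes BiP, the central HSP70 chaperone and the usual readout of ER stress, had a log2 fold change of -0.09 in the authors' deposited table (q = 0.883 by Cuffdiff). Its interval ran from -0.70 to 0.52. Hsp90b1, the ER form of HSP90, stood at -0.17 in the authors' deposited table. The J-domain proteins, which hand clients to BiP, were spread out. Dnajb11 stood at 0.02 and Dnajc3, which also inhibits PERK, at -0.28 in the authors' deposited table. The locus of Dnajb11 overlaps those of Ahsg and LOC102632430.

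Dnajb9 (chromosome 12, 44205897 to 44210068), a co-chaperone that recruits BiP to IRE1 and holds it inactive, had the lowest value of the tested genes. It was 1.69-fold lower in q2 by the authors' deposited table (-0.75 as log2 fold change, q = 0.0595 by Cuffdiff), with an interval from -1.50 to -0.01. It missed the authors' threshold, and with a trend with GC content removed its log2 fold change was -0.54 (adjusted p = 0.303). Sdf2l1 (chromosome 16, 17130138 to 17132383), a partner of Dnajb11 in the BiP cycle, had the highest value, a log2 fold change of 0.66 in the authors' deposited table (q = 0.132 by Cuffdiff). Hyou1 (chromosome 9, 44379490 to 44392369), a large HSP70 relative that exchanges the nucleotide of BiP, stood at 0.49 in the authors' deposited table (q = 0.181 by Cuffdiff). The intervals of Sdf2l1, from -0.10 to 1.42, and of Hyou1, from -0.12 to 1.09, both included 0. In this one role the data thus hold the widest spread of the list, with the 2 ends of the range and the main chaperone near 0.

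Of the 6 lectin chaperones and disulfide isomerases, Pdia4 was called higher in q2. Pdia4 (chromosome 6, 47796141 to 47813512), also known as ERp72, is an isomerase that forms and rearranges disulfide bonds and acts in large chaperone complexes with BiP. It was 1.55-fold higher in q2 by the authors' deposited table (0.63 as log2 fold change, p = 0.00345 and q = 0.0462 by Cuffdiff), with an interval from 0.07 to 1.19. That is the smallest absolute log2 fold change of the 1140 called entries with a finite value in the authors' deposited table. Their median was 1.09 and the second smallest was 0.64. The implied error of Pdia4, 0.285, was the smallest among the 35 genes, and Pdia4 stood at rank 1112 of those 1140 by q. The call lay close to the threshold: q was 0.0624 with the GC trend removed, 0.0518 with a length trend removed and 0.370 with p from a normal distribution of the statistic.

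The other 5 genes of that role had log2 fold changes close to 0. P4hb, the founding protein disulfide isomerase, stood at 0.09 and Pdia6 at -0.02 in the authors' deposited table. Pdia3, which works with the lectin chaperones on glycoproteins, was at -0.18, and the lectin chaperones themselves, Calr in the lumen and Canx in the membrane, stood at -0.08 and at -0.26 in the authors' deposited table. All 5 intervals lay within 2-fold. Pdia6 shares its locus with Atp6v1c2, and without knowledge of strand its reads may be mixed with those of that gene.

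Both small secreted proteins of the response stayed uncalled. Manf, a secreted ER protein with neurotrophic activity, had a log2 fold change of 0.02 and Creld2 one of 0.19 in the authors' deposited table. The 4 genes of ER-associated degradation, which returns misfolded proteins to the cytosol for the proteasome, were uncalled too. Sel1l, the scaffold of the HRD1 ubiquitin ligase, stood at -0.40 (q = 0.302 by Cuffdiff), and Syvn1, the ligase itself, at 0.15 in the authors' deposited table. Edem1, which selects glycoproteins for degradation, was at 0.15, and Herpud1, which organises the ligase complex, at 0.09 in the authors' deposited table. Syvn1 overlaps the loci of Mrpl49 and Mir6988. The scaffold and its ligase had estimates of opposite sign, but their intervals overlap widely, from -0.99 to 0.20 and from -0.66 to 0.96.

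The 3 sensors had intervals within 2-fold. In the authors' deposited table Ern1 stood at -0.17, Eif2ak3 at 0.16 and Atf6 at -0.23, with Cuffdiff q-values of 0.810, 0.784 and 0.655. These are amounts of transcript; sensor activity is set by cleavage, phosphorylation and, for Xbp1, splicing, and gene-level values do not show it. Xbp1 stood at 0.21 and Atf4, which is controlled mainly in translation, at -0.07 in the authors' deposited table.

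The inducible transcription factors were the least well measured. Ddit3, which encodes CHOP, had a log2 fold change of -0.27 in the authors' deposited table with an implied error of 1.40, the largest among the tested genes, and an interval from -3.02 to 2.48. Cebpb, a partner of ATF4 and CHOP, was at 0.26 in the authors' deposited table, with an interval from -1.14 to 1.66. Atf3 and Nupr1, both strongly induced in many forms of stress, carry no test in the authors' deposited table, where their log2 fold changes are 1.09 and -2.83. No error can be given for those 2 genes, and nothing is read from them. Ddit3 also shares its locus with Mars, a tRNA synthetase gene.

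Of the feedback and effector genes, Ppp1r15a encodes GADD34, the phosphatase subunit that restores translation, and it stood at -0.17 in the authors' deposited table. Sesn2, an inhibitor of mTORC1 signalling induced by ATF4, stood at 0.23 in the authors' deposited table. Chac1, which degrades glutathione and is among the most responsive ATF4 and CHOP targets, was at -0.59 in the authors' deposited table (q = 0.423 by Cuffdiff) with an interval from -1.65 to 0.47. Trib3, a pseudokinase that restrains ATF4, was not tested by the authors and is listed at -0.74 in the authors' deposited table.

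Amino acid and one-carbon enzymes driven by ATF4 were uncalled in all 6 cases, 3 with a positive and 3 with a negative value. Shmt2, which feeds one-carbon units from serine into mitochondrial folate, had the highest, at 0.40 in the authors' deposited table (q = 0.313 by Cuffdiff). Its neighbour in that pathway, Mthfd2, stood at 0.10 in the authors' deposited table. Asns, the asparagine synthetase, had the lowest, at -0.34 in the authors' deposited table (q = 0.436 by Cuffdiff). The serine synthesis enzymes Phgdh and Psat1 were at -0.16 and 0.09, and Aldh18a1, the first enzyme of proline synthesis, at -0.16 in the authors' deposited table. Shmt2 overlaps the locus of Ndufa4l2.

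The genes with a promoter element did not stand together on one side. For the 8 genes with an ER stress element the log2 fold changes of the authors' deposited table ran from -0.28 to 0.19 with a median of -0.09, and 2 were positive. The 24 other tested genes with a promoter entry had a median of 0.05 and ran from -0.75 to 0.66. Of the 4 genes at an unadjusted p under 0.05, Pdia4, Dnajb9 and Sdf2l1 lacked the complete element in this window, and Hyou1 had no promoter entry. Pdia4, Dnajb9 and Sdf2l1 each held CCAAT and CCACG in the window, and variants of the element were not searched. In Pdia4 the CCACG lay at or after the transcription start, outside the stretch printed above. For the 3 tested genes with a C/EBP-ATF element, Asns, Chac1 and Herpud1, the median was -0.34 in the authors' deposited table. Their values ran from -0.59 to 0.09, with 1 positive. The 29 other tested genes with a promoter entry had a median of -0.02.

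Fold changes in these data moved with the GC content of the transcripts. Across 11749 tested entries, the correlation of log2 fold change with GC content was 0.299, and across the 35 genes 0.419; these are correlations across genes of the same 4 libraries, given as descriptions. Subtracting the median fold change in 50 bins of GC content brought the correlation among the 35 genes to -0.121. The values moved by at most 0.34, and 17 genes were then positive, 17 negative and 1, Herpud1, at 0. Genes rich in GC lost height: Shmt2 went from 0.40 to 0.14, Chac1 from -0.59 to -0.82 and Ppp1r15a from -0.17 to -0.38. Hspa5 and Hsp90b1, at 46.4% and 42.7% GC, went from -0.09 to 0.07 and from -0.17 to 0.09. No gene of the list was called after the correction. The part of GC content in each fold change was not tested further.

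**Figure D4:**
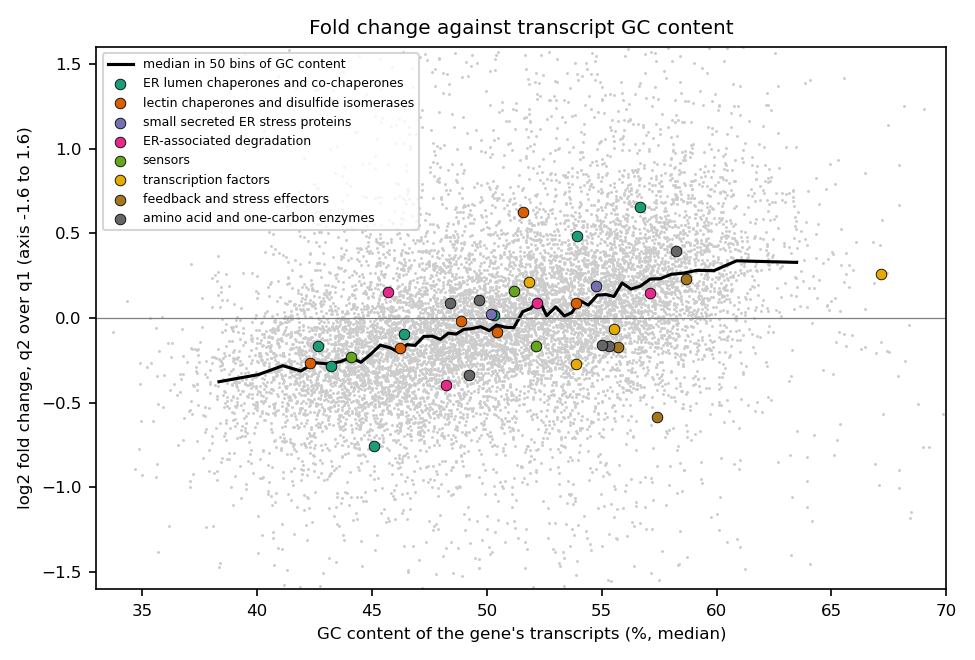
Deposited log2 fold change of q2 over q1 (y axis, limited to -1.6 to 1.6) against the median GC content of a gene's transcripts in percent (x axis), for single-symbol tested entries (grey) and the 35 stress response genes coloured by role; the black line is the median in 50 bins. The line climbs with GC content, and Pdia4, at 51.6% GC and 0.63, lies well above it.

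The wider pathway was examined through 6 lists of related genes, 163 genes of which 155 were tested. Calls were made for 8 of the 155 in the authors' deposited table (5.16%), 4 higher and 4 lower in q2, and 27 had an unadjusted p under 0.05 (17.4%). These shares are set beside 7.63% and 19.2% of all tested entries, and 8.96% of those with a single symbol were called. After removal of the GC trend, calls numbered 2 higher and 1 lower.

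In the secretory machinery 2 genes were called. Tmx3, a membrane-bound disulfide isomerase, was called lower among 24 tested further ER chaperones and foldases, with a log2 fold change of -0.72 in the authors' deposited table (q = 0.0214 by Cuffdiff). With GC removed it was at -0.35 and no longer called. Fkbp10, a collagen foldase of the same list, was at 2.56 in the authors' deposited table but with an implied error of 1.33 and q = 0.168. Mogs, the glucosidase that starts the trimming of N-glycans, was called higher among 28 tested genes of translocation and N-glycosylation, at 0.91 in the authors' deposited table (q = 0.00719 by Cuffdiff). It was at 0.68 and uncalled with GC removed. In the same list the translocon genes Sec62 and Sec61b stood at -0.60 and 0.59 in the authors' deposited table, neither called. Of 21 tested further genes of ER-associated degradation none was called in the authors' deposited table, and 1, Erlec1 at -0.52, had an unadjusted p under 0.05.

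The largest difference among called genes of the 6 lists was that of Creb3l1, which encodes OASIS, an ER-membrane transcription factor related to ATF6 and known for matrix secretion and astrocyte biology. It was 3.83-fold higher in q2 by the authors' deposited table (1.94 as log2 fold change, q = 0.00162 by Cuffdiff) and remained called with the GC trend removed, at 1.68. It was the only called gene among 30 tested genes of UPR and eIF2 signalling in the authors' deposited table. The eIF2 kinase gene Eif2ak2 stood at -0.49 and was not called in the authors' deposited table.

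The list of ATF4 target transporters and metabolism held the most calls of the 6 and was also the longest, with 33 tested genes. Calls were made for 5 of them in the authors' deposited table (15.2%), 2 higher and 3 lower in q2. The share called was 7.63% of all tested entries and 8.96% of those with a single symbol. An unadjusted p under 0.05 was given to 14 in the authors' deposited table (42.4%, against 19.2%). The median absolute log2 fold change was 0.41 in the authors' deposited table, with a median implied error of 0.32, the same as for the 35 stress response genes. Its signs were mixed, with 18 positive and 15 negative values and a median of 0.02.

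By name, the plasma membrane glycine transporter gene Slc6a9 was called lower at -0.94 and Slc7a11, the cystine transporter gene, at -0.96 in the authors' deposited table (q = 0.00162 and 0.0110 by Cuffdiff). Aldh1l2, a mitochondrial folate enzyme, was called lower at -0.73 in the authors' deposited table (q = 0.0345 by Cuffdiff). Called higher were Shmt1, the cytosolic counterpart of Shmt2, at 0.82 and Eif4ebp1, a brake on translation below mTORC1, at 0.84 in the authors' deposited table (q = 0.0180 for both by Cuffdiff). With GC removed Slc6a9 and Eif4ebp1 remained called, and Slc7a11, Shmt1 and Aldh1l2 did not. Of single-symbol entries 6.59% were called with GC removed, so the higher share of calls in this list was no longer seen. The 20 aminoacyl-tRNA synthetase genes, many of which are ATF4 targets, had none called, 2 at an unadjusted p under 0.05 (Vars at 0.55 and Hars at -0.57) and a median absolute log2 fold change of 0.13 in the authors' deposited table.

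Chaperones outside the ER were examined for comparison. Over all tested entries 7.63% were called and 19.2% had an unadjusted p under 0.05. Of 28 tested cytosolic heat shock chaperones, Bag3 was called higher at 0.83 and Dnajb4 lower at -0.80 in the authors' deposited table, and neither was called with GC removed. Of 13 tested mitochondrial stress genes none was called in the authors' deposited table, and 2, Clpx at -0.54 and Clpp at 0.49, had an unadjusted p under 0.05. Differences between these lists and the 35 genes were not tested.

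**Figure D5:**
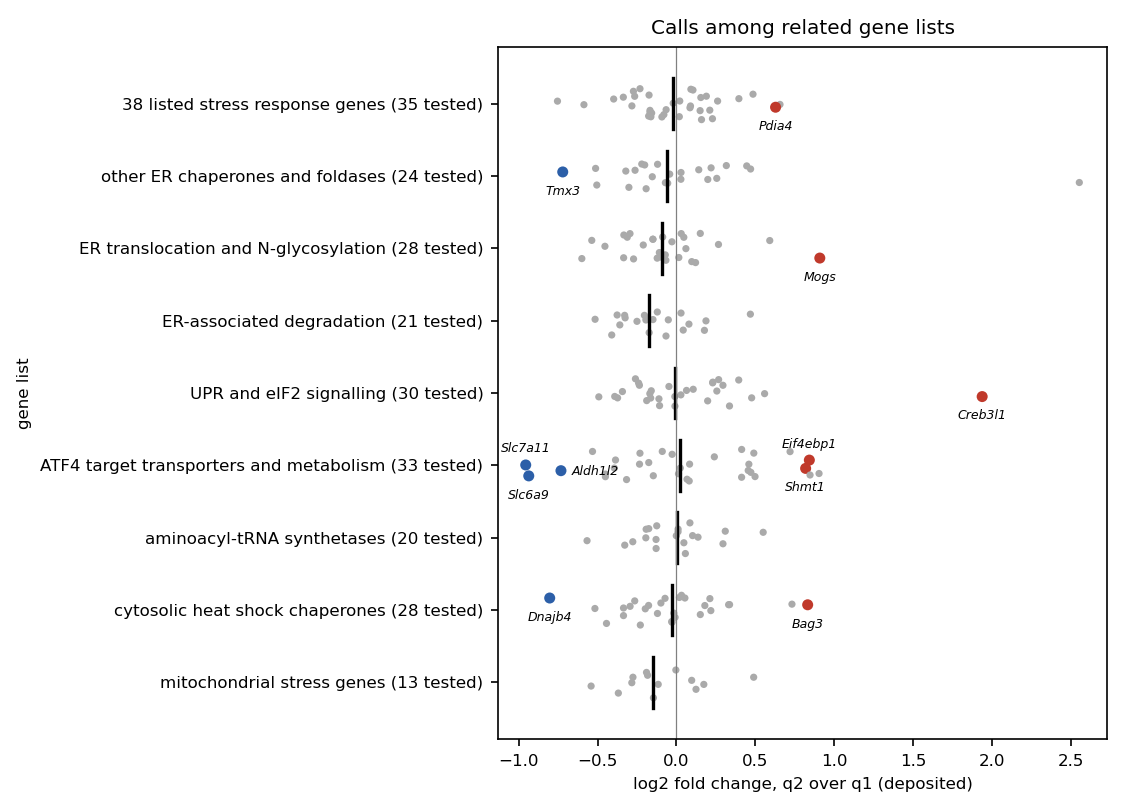
On the x axis, the deposited log2 fold change (q2 over q1) of each tested gene in the stress response list and 8 related lists (y axis), with red for genes called higher in q2, blue for those called lower and grey for the uncalled; black bars are list medians and vertical scatter within a list is for display. The medians lie between -0.17 and 0.02, and 5 called genes fall in the list of ATF4 target transporters and metabolism.

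Some cell identity markers were called in the same contrast. Over all tested entries 7.63% were called, 4.24% higher and 3.39% lower in q2. Of 11 neural stem cell markers 10 were tested, all but Prom1, while levels per condition were not used and no marker can be said to be at 0. Of these 10, Nes was called higher at 0.75 and Fabp7 and Hes5 lower at -1.13 and -0.82 by the authors' deposited table, which left the other 7 uncalled. Of 6 tested astrocyte markers 5 were called lower, from -0.87 for Aldh1l1 to -2.70 for Aqp4, in the authors' deposited table. Among the oligodendrocyte lineage markers, Pdgfra was called lower and Mbp higher in the authors' deposited table. Once GC content was corrected for, Nes and Mbp were no longer called, while Fabp7, Hes5, Pdgfra and the 5 astrocyte markers remained so. Of 4 tested neuron markers 1, Syt1, was called higher, and 5 were not tested. None of the 5 tested microglial, endothelial and fibroblast markers was called in the authors' deposited table. Of the 7 markers in each of these 3 lists, 5, 6 and 5 were not tested. The implied errors of the tested ones ran from 0.54 to 2.62, so the lack of calls says little. Fewer cells of a type and less RNA per cell cannot be told apart in bulk libraries, and the part of cell makeup in the fold changes of the stress response genes was not tested.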

How the data were processed

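Groups were taken from the labels' shRNA field, 2 libraries each. Per the labels' protocols RNA was poly(A)-selected and libraries came from a SOLiD kit. The submitters' processing notes list mm10, Cuffdiff, Cufflinks 2.2.1 and TopHat2 2.0.9. Annotation, use of strand and filters are not given in the sources used. The authors deposited log2 fold changes of q2 over q1, a test statistic that is a score, and p-values and q-values, per the file headers. A further 2 columns of values per condition match no group and were not used, so depth, and the precision it gives, is unknown. What spread between passages the authors' p-values measure is not stated.

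Calls are the authors' q under 0.05 over all tested entries. Coordinates are those of the deposited loci, counted from 1. Errors were computed as log2 fold change over statistic. GC content and length came from GENCODE M21 by symbol, for 95.6% of single-symbol tested entries. For corrected values p was interpolated from the authors' p at the same size of statistic and adjusted by Benjamini-Hochberg. GC removal and the adjustment were tested on simulated data with p from a normal distribution, and not with the interpolated p. Named genes are all members, Foxp1, and in each other list all called genes or, with fewer than 2 called, up to 2 with the largest statistic. Members and lists were chosen with earlier results of these data known. Some marker results are not reported here. Alternatives were other q limits, a minimum fold change, normal p-values, centring, single-symbol entries, merged entries, entries with their own locus, and GC or length removal. The software was pandas 2.3.3, numpy 2.4.6, scikit-learn 1.9.0, matplotlib 3.10.9 and scipy 1.17.1 under Python 3.11.15.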

Additional observations from a re-analysis of the deposited data

How the results depend on the processing

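The count of called stress response genes rested on 1 gene at the threshold. It was 1, Pdia4 (higher in q2), in the deposited calls, with adjustment over single-symbol entries, and after centring with the authors' relation of p to statistic. It was also 1 with merged entries added and over entries whose locus overlaps no other, but those settings could not change the call. They keep the deposited q, no gene of the list lay in a merged entry, and the locus of Pdia4 overlaps no other. It was 0, and so 0 higher, at q under 0.01, with an absolute log2 fold change of at least 1, with normal p-values with or without centring, and with the GC or the length trend removed. At q under 0.1 it was 2, with Dnajb9 as 1 call lower. Of the 12090 tested single-symbol entries, 8.96% had deposited calls, 5.14% passed at q under 0.01 and 5.05% with the minimum fold change. With normal p-values 3.07% were called, or 3.15% when centred. With the GC or the length trend removed, 6.59% and 8.42% of 11562 entries were called. At q under 0.1, 1456 of the 12090 were called. With adjustment over single-symbol entries 9.6% were called, and after centring by the authors' relation 8.5%. Of the 9568 entries with their own locus 9.57% were called. Differences from these shares were not tested. The median log2 fold change of the stress response genes lay between -0.07 (own locus) and 0.03 (centred) throughout. Of the 6 pathway lists, 4 genes were called higher and 4 lower; the alternatives for these lists and the centring by the authors' relation were chosen after seeing the data. They gave 2 higher and 1 lower at q under 0.01 and with GC removed, 8 higher at q under 0.1, 1 higher and 0 lower with the minimum fold change and with normal p-values, centred or not, 7 higher over single-symbol entries, and 6 higher and 2 lower after centring by the authors' relation. Only uncalled genes changed sign: Pdia6 to 0.0277 with either centring, and with GC removed Hspa5 to 0.0721, Hsp90b1 to 0.0892, Pdia6 to 0.0570, Syvn1 to -0.0832, Atf6 to 0.0191, Sesn2 to -0.0286 and Cebpb to -0.0753. No paired analysis was possible because the deposited table holds 1 comparison of pooled conditions and no value per library; leaving out a replicate was not run for the same reason. The size of an undetected change is limited by the implied errors, from 0.285 to 1.40 on the log2 scale.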
